A study of Mus musculus with 12 samples.

Results

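The p53 pathway was followed through 10 genes in mouse satellite cells, the resident stem cells of skeletal muscle. They were the p53 family members *Trp53* and *Trp63*, the p53 inhibitors *Mdm2* and *Mdm4*, and the p53 target genes *Ccng1*, *Btg2*, *Gadd45a*, *Bax*, *Bbc3* and *Sesn1*. The genes were taken by name from a table of 55401 genes, and all 10 were among the 25771 genes with enough reads to be tested. RNA was sequenced in bulk from Pax7-ZsGreen+ cells sorted from both hind limbs of adult mice, where ZsGreen is a fluorescent reporter of *Pax7*, the transcription factor that marks satellite cells. All mice carried homozygous floxed alleles of the chemokine receptor gene *Cxcr4* (CXCR4 FL/FL) and the Pax7-ZsGreen reporter, and all received tamoxifen at 80 mg/kg on 5 days in a row. Mice that also carried Pax7-creERT2, a recombinase that tamoxifen turns on in *Pax7*-expressing cells, are called *Cxcr4* KO, and mice without it are called WT, so that loss of *Cxcr4* and presence of the recombinase cannot be told apart. Freshly sorted cells, labelled quiescent and called fresh here, gave 4 WT and 4 KO libraries. Cells cultured overnight after sorting, labelled activated and called cultured here, gave 2 WT and 2 KO libraries. The labels do not say which libraries came from separate mice, so that p-values measure the spread between these libraries, which may be technical. In bulk RNA, fewer cells of a type and less RNA per cell cannot be told apart.

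The transcription factor p53, encoded by *Trp53*, is held at a low level in unstressed cells because MDM2, a ubiquitin ligase, marks the protein for degradation, while MDM4 binds it and blocks its activity. DNA damage and other stresses free p53 from both, and it then raises the transcription of genes that stop the cell cycle, start apoptosis or limit oxidative damage, *Mdm2* among them, which closes a feedback loop. Much of this control acts on the protein, which RNA counts do not measure. In satellite cells, p53 is known for its part in the return to quiescence and in cell survival on activation. *Trp63* encodes p63, a relative of p53 best known from the basal layer of epithelia and from oocytes.

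Promoter sequences from RefSeq on GRCm38.p6, which run from 250 bases before to 50 bases after each annotated start site, were matched for 9 of the 10 genes, all but *Trp63*. They were searched for the p53 consensus element, a 20-base sequence made of 2 adjoining copies of a 10-base unit, with no spacer allowed. The element equals its own reverse complement, so that a match on either strand is counted once. The best match was in *Ccng1*, whose promoter is shown because this gene rose most in cultured cells. Its window at chr11:40755462-40755481, 195 to 176 bases before the start site, differed from the consensus at 1 base. Only 29 of 32851 promoters (0.0883%) held a window with at most 1 mismatch. The 225 bases of the *Ccng1* promoter that lie before the annotated transcript, chr11:40755312-40755536 on the minus strand, read as follows, with the matching window in capitals.
*Ccng1* promoter: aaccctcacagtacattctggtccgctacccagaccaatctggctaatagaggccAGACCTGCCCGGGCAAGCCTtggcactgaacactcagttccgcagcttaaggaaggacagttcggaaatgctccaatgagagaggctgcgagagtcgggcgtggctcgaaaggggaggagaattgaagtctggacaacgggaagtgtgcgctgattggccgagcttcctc

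At most 3 mismatches were found in 7 of the 13 promoters of these genes, belonging to 7 of the 9 genes, against 6.29% of all promoters. The genes were chosen as members or targets of the p53 pathway, so that this share is a description and carries no test. The best windows of these 7 genes are set out so that they can be compared, 5′ to 3′ on the gene's strand, with bases that match the consensus in capitals and mismatches in lower case.
*Ccng1*: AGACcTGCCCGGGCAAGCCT
*Trp53*: GGACTTGCCCttACTTGTTa
*Mdm4*: AGGtATGCTgtGGCAAGCCT
*Bax*: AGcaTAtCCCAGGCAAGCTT
*Bbc3*: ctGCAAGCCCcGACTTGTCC
*Gadd45a*: AAACTAcCTaGAGCTgGCTC
*Sesn1*: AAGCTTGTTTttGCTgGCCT

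The windows lay at chr11:69580284-69580303 (plus strand) for *Trp53*, chr1:133025626-133025645 (minus) for *Mdm4*, chr7:45467090-45467109 (minus) for *Bax*, chr7:16309486-16309505 (plus) for *Bbc3*, chr6:67037632-67037651 (minus) for *Gadd45a* and chr10:41887266-41887285 (plus) for *Sesn1*. The *Mdm4*, *Bbc3* and *Sesn1* windows each belong to 1 of several annotated start sites of the gene. The best window of *Btg2* had 4 mismatches, which 30.2% of all promoters reach or better, and that of *Mdm2* had 5, the median of all promoters. A match in these letters is not evidence of binding, and p53 elements outside these 300 bases were not searched.

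Several facts about the libraries bear on every comparison of cultured with fresh cells. Between 12775593 and 23717013 reads were counted on genes in fresh libraries and between 3172164 and 5427280 in cultured ones. The ribosomal RNA gene CT010467.1 took 0.295% to 0.807% of fresh and 11.45% to 40.32% of cultured counts. The 4 Y chromosome markers summed to 358 to 660 CPM (read counts brought to equal depth by TMM) in fresh and 0 to 2.51 CPM in cultured libraries, and *Xist* was at 1.2 to 7.17 CPM in fresh and 451 to 817 CPM in cultured ones, so that the sex of the mice and the culture cannot be told apart. Summed levels of 8 satellite cell markers ran from 4529 to 7945 CPM in fresh and from 2306 to 3511 CPM in cultured libraries, with none at 0, while 8 markers of mature muscle fibre ran from 255 to 864 CPM in fresh and from 5758 to 14100 CPM in cultured ones. Markers of other cell types were also lower in cultured than in all fresh libraries, with 7 hematopoietic markers at 82.6 to 358 CPM in fresh and 33 to 65.3 CPM in cultured libraries and 6 smooth muscle and pericyte markers at 460.5 to 1750 and 168 to 377 CPM. The ranges of 7 endothelial markers (261 to 1172 and 97.2 to 678 CPM) and of 7 fibroadipogenic progenitor markers (344 to 3260 and 275 to 744 CPM) overlapped. No marker of these 4 lists was at 0 in a whole group. The parts of depth, ribosomal RNA, sex, fibre RNA and these other cell types in the culture differences below were not tested. *Cxcr4* itself was lower in every KO than in every WT library in both states, by 2.24 ± 0.31 (log2, SE) in fresh cells (adjusted p = 0.00477) and by 1.35 ± 0.46 in cultured cells (adjusted p = 0.381).

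Between cultured and fresh cells, 5 of the 10 genes were called in WT and 6 in KO, some higher and some lower, and none of the 10 was called between KO and WT. A gene was called changed at an adjusted p-value under 0.05 (edgeR's quasi-likelihood test, Benjamini-Hochberg over all 25771 genes), more than a 2-fold difference and a mean count over 10. In WT cells, *Ccng1* and *Bax* rose with culture, 2 of 10 where 9.35% of all genes were called higher, and *Btg2*, *Gadd45a* and *Sesn1* fell, 3 of 10 where 17% of all genes were called lower. In KO cells, *Ccng1*, *Bax*, *Trp63* and *Bbc3* rose, 4 of 10 against 10.7% of all genes, and *Btg2* and *Gadd45a* fell, 2 of 10 against 19%. The median difference of the 10 genes with culture was -0.42 in WT and 0.18 in KO cells on the log2 scale, beside -0.92 and -0.96 over all genes tested. Both culture comparisons thus have a centre of all genes below 0. Fewer genes reached 10 counts in cultured libraries (10344 to 13411) than in fresh ones (19717 to 23436). The part of this in the centre of all genes was not tested.

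**Figure D1:**
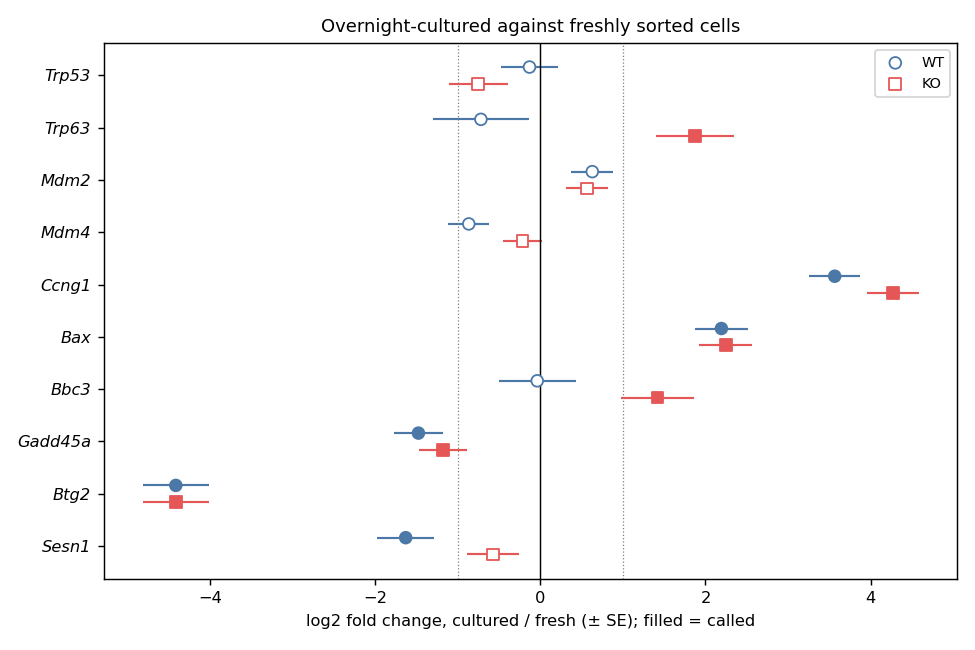
Difference between cultured and fresh cells for the 10 genes (horizontal axis, log2 fold change with SE bars) in WT (blue circles) and KO (red squares), with filled symbols for called genes and dotted lines at the 2-fold limit. *Ccng1* and *Bax* lie to the right and *Btg2* and *Gadd45a* to the left in both genotypes, and *Trp63* lies on opposite sides of 0 (-0.72 in WT, 1.87 in KO).

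Between KO and WT, the 10 genes had 0 calls in fresh cells, where 0.0155% of all genes (4) were called, and 0 calls in cultured cells, where 0.0504% (13) were called. The test of whether the KO difference itself differed between the states gave 0 calls among the 10 and 0% of all genes. DESeq2 on all 12 libraries called 0 of the 10 in fresh cells, 1 (*Trp63*) in cultured cells and 0 in the test between the states. At an unadjusted p-value under 0.05, edgeR found *Trp53* in fresh cells, *Trp63*, *Mdm4*, *Ccng1* and *Sesn1* in cultured cells, and *Trp63*, *Bbc3* and *Sesn1* in the test between the states, beside 448, 2158 and 1699 of all genes. Every KO library lay above every WT library for 1 of the 10 genes in fresh cells (0.869% of all genes did so) and for 4 of the 10 in cultured cells (15.2% of all genes). The median KO minus WT difference of the 10 genes was 0.08 in fresh and 0.47 in cultured cells (log2), beside 0.02 and 0 over all genes. The 2 culture comparisons share their libraries with these comparisons and are not separate evidence.

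**Figure D2:**
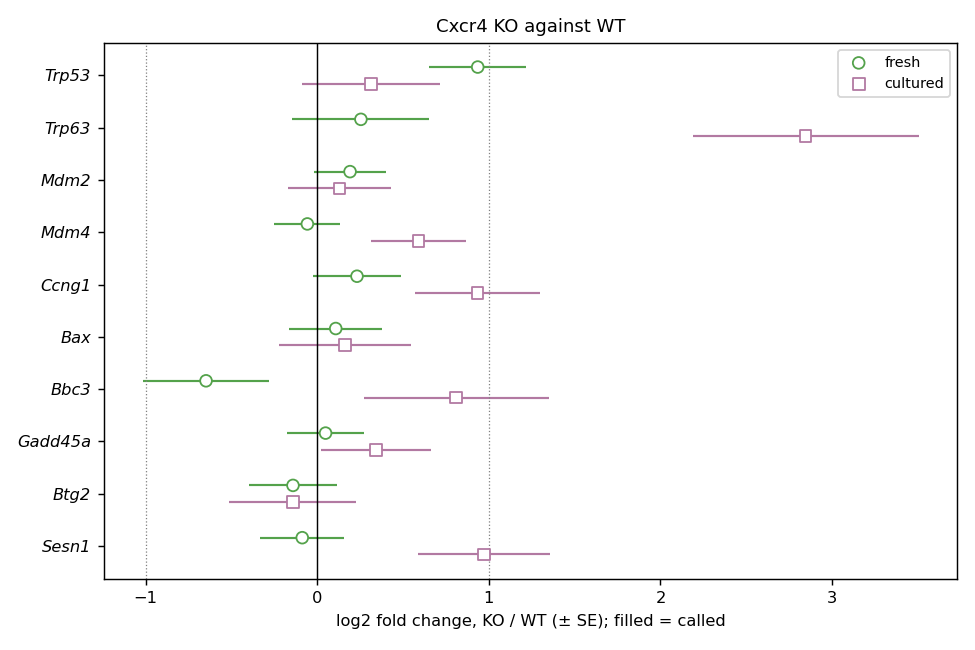
Difference between KO and WT for the 10 genes (horizontal axis, log2 fold change with SE bars) in fresh (green circles) and cultured cells (purple squares). No symbol is filled because no gene was called, and *Trp63* in cultured cells (2.85) and *Trp53* in fresh cells (0.93) lie farthest to the right in their state.

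*Trp53* (ENSMUSG00000059552; chromosome 11, 69580359 to 69591873, plus strand), which encodes p53 itself, had 142, 129.7, 144 and 128 CPM in the 4 fresh WT libraries and 252, 469, 156 and 164 CPM in the 4 fresh KO libraries. All fresh KO libraries were above all WT ones, with the KO group far more spread out (260.1 ± 145.7 CPM against 136 ± 8.35, mean and SD, n = 4 each). The difference of 0.93 ± 0.28 on the log2 scale (SE) did not pass the adjustment (adjusted p = 1). Under 11 alternatives with edgeR or DESeq2 it ran from 0.80 to 0.96, with a lowest adjusted p of 0.0735 and no call. It came mostly from the libraries numbered 1 and 2, which are also the shallower ones (12775593 to 17532019 counts), where mean *Trp53* was 136 CPM in WT and 360 CPM in KO, a ratio of 2.65. In the libraries numbered 3 and 4 (22785815 to 23717013 counts) the means were 136 and 159.9 CPM, a ratio of 1.17, and without the second KO library the difference was 0.49. KO libraries 1 and 2 also had the lowest summed level of 7 fibroadipogenic progenitor markers among fresh libraries, 344 and 747 CPM against 1228 to 3260 CPM in the other 6, and none of these markers was at 0 in a group. Other marker lists set 1 of these libraries apart as well. KO library 2 was the highest fresh library for fibre markers (864 CPM) and for the 6 epithelial markers named further on (31.2 CPM). KO library 1 was the highest for endothelial markers (1172 CPM). The part of these cell types in the *Trp53* difference was not tested.

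In cultured cells, *Trp53* stood at 142 and 106 CPM in WT and at 135 and 173 CPM in KO, and the genotypes overlapped (0.31 ± 0.40, adjusted p = 0.972). Its change with culture was -0.13 ± 0.35 in WT (adjusted p = 0.784) and -0.75 ± 0.36 in KO (adjusted p = 0.107). *Trp53* was thus neither called higher nor lower in any comparison, in contrast to several of its targets. Its annotated pseudogene *Trp53-ps* held 0 to 66 counts per library beside 242 to 6861 counts of *Trp53*, and how reads that match both were counted is not stated.

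*Trp63* (ENSMUSG00000022510; chromosome 16, 25683763 to 25892102, plus strand), the p53 relative of epithelia, was the lowest of the 10 genes in every group by the length-scaled values given further on. Fresh libraries held 2.40, 3.69, 3.07 and 2.12 CPM in WT and 5.79, 2.94, 2.87 and 1.84 CPM in KO, and the genotypes overlapped (0.25 ± 0.40, adjusted p = 1). Cultured WT libraries held 1.96 and 1.31 CPM, and cultured KO libraries 12.33 and 12.32 CPM. The 2 cultured KO libraries thus stood above the other 10, and the 2 cultured WT libraries were at or near the bottom of the range.

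The KO minus WT difference of *Trp63* in cultured cells was 2.85 ± 0.66 on the log2 scale, from 15 counts in both WT libraries together and 102 in both KO libraries. With edgeR it did not pass (adjusted p = 0.137), and leaving out any single library gave 2.57 to 3.13 and no call. It passed when no low counts were filtered out (adjusted p = 0.0195) and in the DESeq2 fit of the 12 libraries together (0.0185). Across 10 alternatives the adjusted p of this difference lay between 0.0185 and 0.364. Within KO cells, *Trp63* rose with culture by 1.87 ± 0.47 (3.66-fold, adjusted p = 0.00478), and this call was made in all 12 fits that left out a library. Within WT cells it moved by -0.72 ± 0.59 (adjusted p = 0.338), and the difference between these changes was 2.59 ± 0.76 (adjusted p = 0.443). The 6 epithelial markers *Krt5*, *Krt14*, *Krt15*, *Krt1*, *Epcam* and *Cdh1*, chosen because such cells express p63, summed to 0 and 1.83 CPM in the cultured KO libraries, with 2 of the 6 at 0 in both, and to 0.817 and 2.19 CPM in the cultured WT libraries, with 3 at 0. The gene counts do not separate the long (TA) and short (ΔN) isoforms of p63. *Trp73*, the remaining family member, had at most 1.93 CPM in a fresh library, with means of 0.989 CPM in WT and 0.873 CPM in KO. It had no read in the 4 cultured libraries, where 3 counts would be 0.490 to 1.31 CPM. *Trp73* was tested and called in no comparison, and without a cultured read the size of any fall could not be given.

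**Figure D3:**
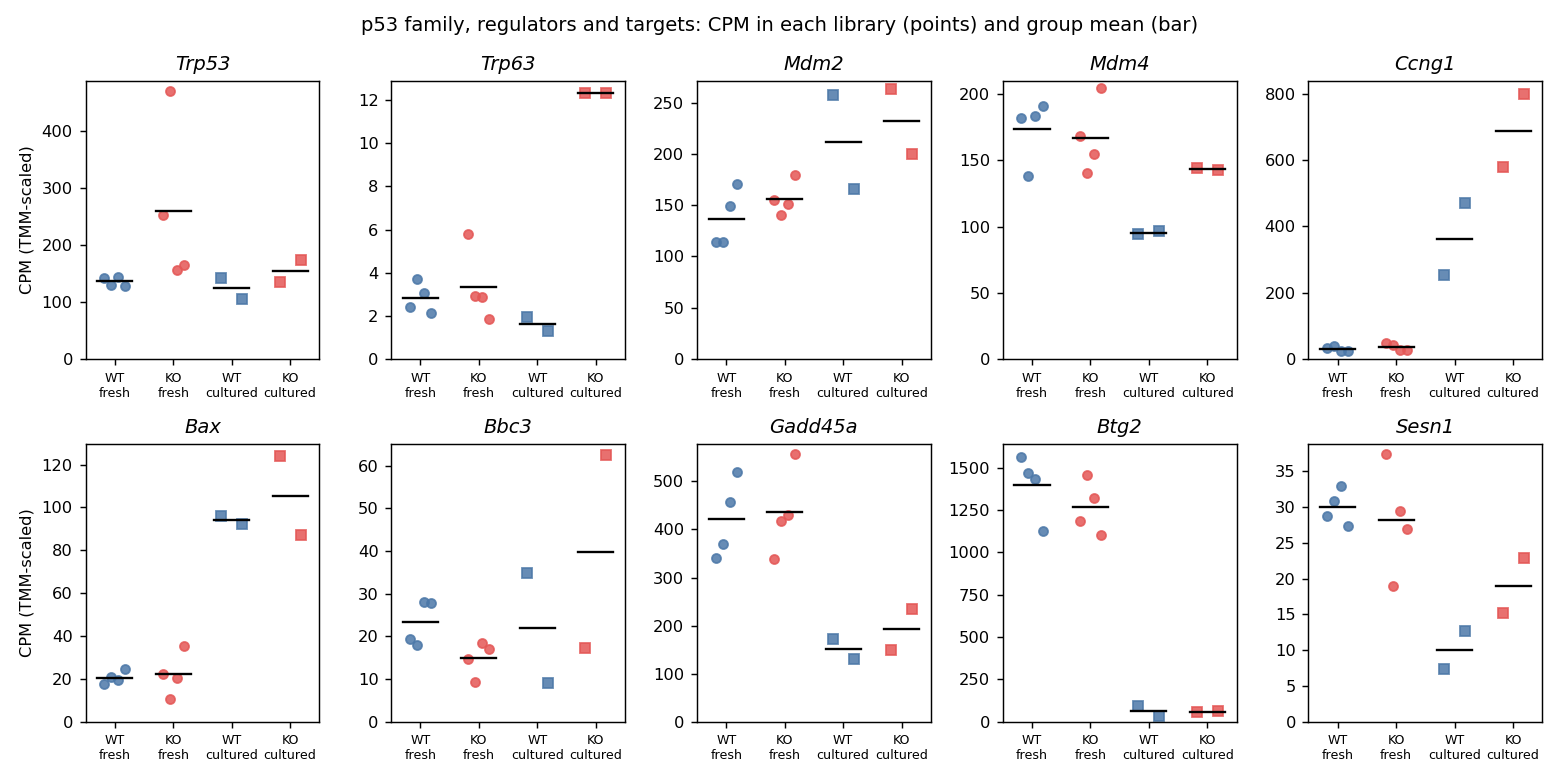
Level of each gene in each library (vertical axis, TMM-scaled CPM, starting at 0) in WT fresh, KO fresh, WT cultured and KO cultured cells, with a point for each library and a bar at the group mean. Cultured points stand apart from fresh ones for *Ccng1*, *Bax*, *Gadd45a* and *Btg2*, the 2 cultured KO points stand apart for *Trp63*, and fresh KO *Trp53* runs from 156 to 469 CPM.

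The p53 inhibitors were expressed in all libraries and neither was called in any comparison. *Mdm2* (ENSMUSG00000020184; chromosome 10, 117688875 to 117710758, minus strand), the ubiquitin ligase and itself a p53 target, had 114, 114, 149 and 171 CPM in fresh WT and 155, 140.1, 151 and 179.8 CPM in fresh KO libraries. It had 257 and 166 CPM in cultured WT and 264 and 200.1 CPM in cultured KO libraries, so that the cultured KO libraries lay above all fresh KO libraries while the WT groups overlapped. The change with culture was 0.63 ± 0.26 in WT (adjusted p = 0.0687) and 0.57 ± 0.26 in KO (adjusted p = 0.0917). Genotypes overlapped in both states, with differences of 0.19 ± 0.21 in fresh and 0.13 ± 0.30 in cultured cells.

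*Mdm4* (ENSMUSG00000054387; chromosome 1, 132959484 to 133030561, minus strand), which encodes a relative of MDM2 that blocks p53 activity, had 182, 138, 183 and 191 CPM in fresh WT and 168, 140.5, 155 and 204 CPM in fresh KO libraries. Cultured WT libraries had 94.6 and 96.3 CPM, below every other library, and cultured KO libraries had 144 and 143 CPM, within the fresh range. In WT cells the change with culture was -0.86 ± 0.25 (adjusted p = 0.0123), which passed the p-value but not the 2-fold limit. In KO cells it was -0.22 ± 0.24 (adjusted p = 0.473). The KO minus WT difference in cultured cells, 0.59 ± 0.28, did not pass (adjusted p = 0.595), and the difference between the changes was 0.65 ± 0.34 (adjusted p = 0.788). Its pseudogene *Mdm4-ps* held 0 to 18 counts per library.

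Among targets that act on the cell cycle, *Ccng1* rose and *Btg2* and *Gadd45a* fell with culture. *Ccng1* (ENSMUSG00000020326; chromosome 11, 40748552 to 40755311, minus strand), which encodes cyclin G1, an early p53 target that recruits a phosphatase to MDM2, had 33.5, 39.1, 24.5 and 24.9 CPM in fresh WT and 47.6, 42.2, 25.8 and 27.5 CPM in fresh KO libraries. It had 253 and 469.8 CPM in cultured WT and 578 and 799 CPM in cultured KO libraries. The cultured libraries lay far above the fresh ones in both genotypes, and the cultured KO libraries lay above the cultured WT ones. The rise was 11.8-fold in WT (3.56 ± 0.31 on the log2 scale, adjusted p = 9.31e-08) and 19.3-fold in KO (4.27 ± 0.31, adjusted p = 1.79e-08), and it was called in all 12 fits without a library. The KO minus WT difference in cultured cells was 0.93 ± 0.37 and did not pass (adjusted p = 0.472). That difference was 0.45 without the first cultured WT library and 1.37 without the second. The summed fibre markers were 5758 and 12860 CPM in the cultured WT libraries and 7677 and 14100 CPM in the cultured KO libraries. The genotypes overlapped in this sum, while all 8 markers had a positive KO minus WT estimate (median 0.18 on the log2 scale, none called). The part of fibre RNA in the *Ccng1* difference was not tested.

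*Btg2* (ENSMUSG00000020423; chromosome 1, 134075170 to 134079120, minus strand), which encodes an antiproliferative partner of mRNA deadenylases and is also an immediate early gene, was high in all fresh libraries. They had 1566, 1472, 1431 and 1125 CPM in WT and 1186, 1457, 1324 and 1103 CPM in KO. Cultured libraries had 95.9 and 33.7 CPM in WT and 55.5 and 63.4 CPM in KO, all below every fresh library. The fall was 21.3-fold in both genotypes, -4.41 ± 0.40 on the log2 scale in WT (adjusted p = 1.61e-07) and -4.41 ± 0.40 in KO (adjusted p = 1.37e-07). The difference between these changes was -0.0018 ± 0.44 (SE), so that no difference was detectable at this precision.

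*Gadd45a* (ENSMUSG00000036390; chromosome 6, 67035096 to 67037457, minus strand), a DNA damage gene whose product slows the cell cycle at the transition to mitosis, had 339.8, 370.2, 457 and 519 CPM in fresh WT and 338, 418, 431 and 557 CPM in fresh KO libraries. Cultured libraries had 172 and 131 CPM in WT and 150.3 and 235 CPM in KO, again all below every fresh library. The change was -1.47 ± 0.30 in WT (adjusted p = 0.000797) and -1.18 ± 0.29 in KO (adjusted p = 0.00408). The KO call ended without the first cultured KO library (-0.90, adjusted p = 0.133). An antisense gene, E230016M11Rik, shares 337 exonic bases with *Gadd45a* and held 49 to 194 counts in fresh and 0 to 4 in cultured libraries, beside 5218 to 11797 and 299 to 1052 counts of *Gadd45a*. Whether reads were counted by strand is not stated.

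Of the apoptosis targets, *Bax* rose in both genotypes and *Bbc3* varied widely among cultured libraries. *Bax* (ENSMUSG00000003873; chromosome 7, 45461697 to 45466898, minus strand), whose product opens the outer mitochondrial membrane, had 17.7, 20.7, 19.5 and 24.6 CPM in fresh WT and 22.3, 10.8, 20.4 and 35.2 CPM in fresh KO libraries. It had 96.2 and 92.4 CPM in cultured WT and 124 and 86.9 CPM in cultured KO libraries, all above every fresh library. The rise was 4.57-fold in WT (2.19 ± 0.32, adjusted p = 3.28e-05) and 4.74-fold in KO (2.25 ± 0.32, adjusted p = 2.14e-05), and it was called without any one library. KO and WT overlapped in both states. The gene Gm45808, which shares 192 exonic bases with *Bax* on the same strand, held no counts.

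*Bbc3* (ENSMUSG00000002083; chromosome 7, 16308393 to 16318205, plus strand) encodes PUMA, which binds and neutralises the survival proteins of the BCL2 family. Fresh libraries had 19.5, 18.1, 28.1 and 27.8 CPM in WT and 14.7, 9.22, 18.5 and 17.1 CPM in KO, a difference of -0.65 ± 0.37 that did not pass (adjusted p = 1), with 1 KO library above the lowest WT library. Cultured libraries had 34.8 and 9.20 CPM in WT and 17.2 and 62.5 CPM in KO. The libraries of a cultured group thus differed from each other by more than the groups did. The call in KO cells (1.42 ± 0.44, adjusted p = 0.0182) rests on the second cultured KO library, because the groups overlap and the difference was 0.22 without it (adjusted p = 0.750). In WT cells the change was -0.04 ± 0.46 (adjusted p = 0.957).

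*Sesn1* (ENSMUSG00000038332; chromosome 10, 41809935 to 41908424, plus strand), which encodes sestrin 1, a stress protein that limits mTORC1 signalling, had 28.8, 30.8, 32.9 and 27.4 CPM in fresh WT and 37.4, 19.0, 29.4 and 27.0 CPM in fresh KO libraries. It had 7.35 and 12.7 CPM in cultured WT and 15.2 and 22.8 CPM in cultured KO libraries. Cultured WT libraries lay below all fresh WT libraries, whereas one cultured KO library lay within the fresh KO range. In WT cells *Sesn1* fell by 1.63 on the log2 scale (SE 0.35, adjusted p = 0.00137), a call that ended without the first cultured WT library (-1.16, adjusted p = 0.0777). In KO cells it moved by -0.57 ± 0.32 (adjusted p = 0.166). The KO minus WT difference in cultured cells was 0.97 ± 0.39 (adjusted p = 0.479), from 74 counts in both WT and 159 in both KO libraries, and it ran from 0.48 to 1.29 without a library. The difference between the changes, 1.06 ± 0.46, did not pass either (adjusted p = 0.713).

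Levels can be compared between genes only per length, for which the authors' FPKM values (fragments scaled by gene length and depth, 1 value per group and thus with no error) were used. By FPKM, *Btg2* led the 10 genes in fresh cells, at 496 in WT and 451 in KO, followed by *Gadd45a* (232 and 239.8) and *Trp53* (32.7 and 63.7). In cultured cells *Ccng1* led, at 106 in WT and 192 in KO, followed by *Gadd45a* (87.2 and 106) and *Bax* (61.1 and 65.8). *Btg2* dropped to rank 6 in both genotypes, at 23.6 and 21.2. *Ccng1* had been at rank 8 in fresh WT and rank 7 in fresh KO cells, at 8.45 and 9.97. *Trp63* was last in every group, at 0.327 and 0.390 in fresh and 0.198 and 1.44 in cultured cells. With 1 value per group it cannot be said which neighbours in these orders differ beyond their spread.

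The rest of the pathway was read from lists of genes chosen by their known roles, with some genes in more than 1 list. None of their genes was called between KO and WT in either state or in the test between the states. Of 30 other p53 targets, 6 rose and 6 fell with culture in WT cells, and 6 rose and 6 fell in KO cells, where 9.35% and 10.7% of all genes were called higher and 17% and 19% lower. The list medians were 0.07 in WT and -0.34 in KO on the log2 scale, beside -0.92 and -0.96 over all genes. The largest rises were those of *Phlda3*, an inhibitor of AKT, *Tigar*, which lowers glycolytic flux, and *Zmat3*, an RNA-binding protein. *Phlda3* went from 36.9 ± 2.35 to 359.6 ± 10.1 CPM in WT (mean and SD, n = 4 and 2; 3.29 ± 0.21 on the log2 scale) and from 39.6 ± 1.52 to 504 ± 76.2 CPM in KO (3.67 ± 0.21). *Tigar* rose by 3.16 ± 0.38 and 3.31 ± 0.38, and *Zmat3* by 2.52 ± 0.32 and 2.56 ± 0.31.

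Among the called genes that fell, *Plk3*, a stress kinase, changed by -2.72 ± 0.28 in WT and -2.83 ± 0.29 in KO cells. *Apaf1*, the scaffold of the apoptosome, changed by -1.61 ± 0.38 in WT, which was called, and by -0.82 ± 0.35 in KO cells (adjusted p = 0.0765). The death receptor gene *Fas* changed by -2.56 ± 0.47 in WT and -3.44 ± 0.51 in KO cells, both called. *Perp*, a desmosomal protein, changed by -1.33 ± 0.67 in WT (adjusted p = 0.136) and by -3.75 ± 0.86 in KO cells, where it was called and had 0.514 and 1.14 CPM. *Cdkn1a*, the cell cycle inhibitor p21 and the best known p53 target, was singled out after its values were seen. It had 926 ± 146 CPM in fresh WT, 1033 ± 157 in fresh KO, 437 ± 116 in cultured WT and 582 ± 126 in cultured KO libraries. Its change with culture was -1.08 ± 0.28 in WT (adjusted p = 0.00596), which was called, and -0.83 ± 0.27 in KO (adjusted p = 0.0260), under the 2-fold limit. Targets of p53 thus lay on both sides of 0, with *Ccng1*, *Phlda3*, *Tigar*, *Zmat3* and *Bax* up and *Btg2*, *Gadd45a*, *Fas* and *Plk3* down in both genotypes.

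**Figure D4:**
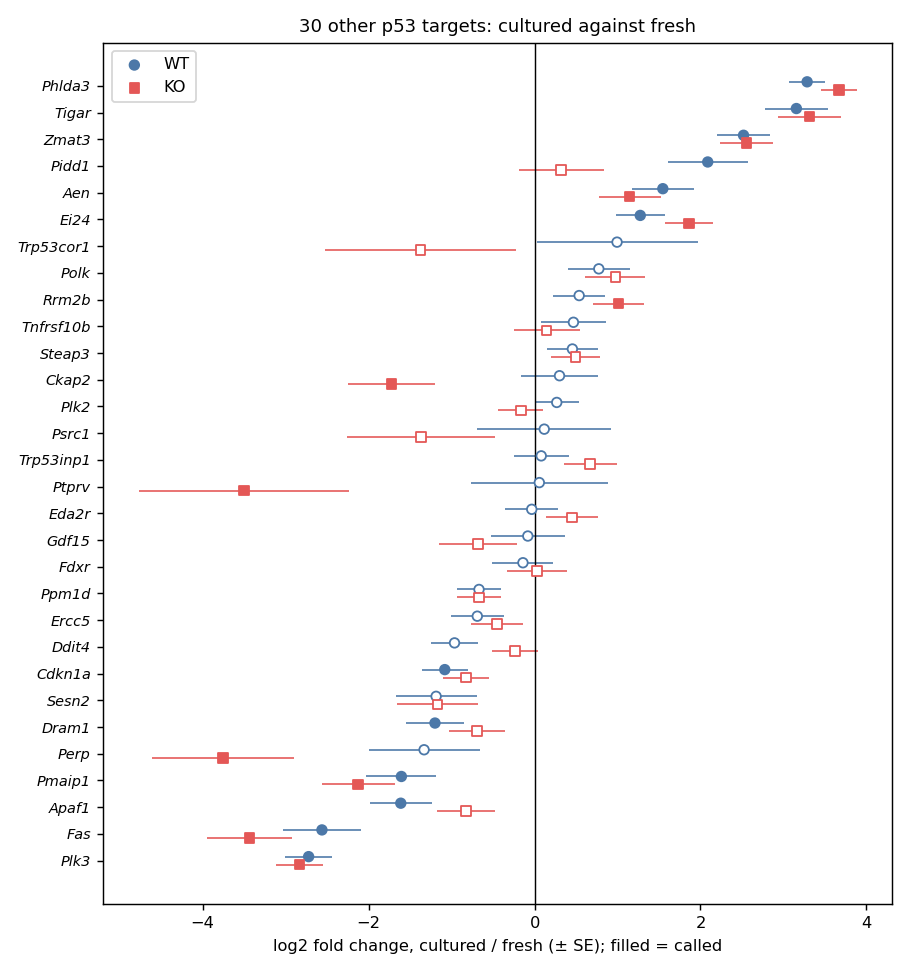
Difference between cultured and fresh cells for 30 other p53 targets (horizontal axis, log2 fold change with SE bars), ordered by the WT value, in WT (blue circles) and KO (red squares), with filled symbols for called genes. *Phlda3*, *Tigar* and *Zmat3* lie farthest to the right in both genotypes, *Plk3* and *Fas* lie far to the left in both, and bars are wide for genes of few counts such as *Perp*.

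Of 20 regulators of p53, *Mdm2* and *Mdm4* included, none rose and 6 fell in WT and 6 in KO cells, where 17% and 19% of all genes were called lower. The list medians were -0.26 and -0.44, beside -0.92 and -0.96 over all genes. The kinase gene *Prkdc*, which signals DNA double-strand breaks, changed by -2.56 ± 0.50 in WT and -1.50 ± 0.43 in KO cells. *Sirt1*, a p53 deacetylase, changed by -1.32 ± 0.30 and -1.41 ± 0.30, and *Trp53bp1*, a DNA damage mediator, by -1.11 ± 0.29 and -1.45 ± 0.30, both called in both genotypes. *Kat5*, a p53 acetyltransferase, changed by -1.35 ± 0.30 in WT, which was called, and by -0.92 ± 0.28 in KO cells (adjusted p = 0.0177), under the 2-fold limit. The checkpoint kinase gene *Chek1* changed by 0.22 ± 0.46 in WT (adjusted p = 0.722) and by -2.29 ± 0.56 in KO cells, where it was called and had 0.684 and 2.31 CPM. None of these genes was called in the test of whether the changes differ between the genotypes.

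Of 15 BCL2 family genes, *Bax* and *Bbc3* included, 4 rose and 4 fell in WT cells and 5 rose and 5 fell in KO cells, where 9.35% and 10.7% of all genes were called higher and 17% and 19% lower. The list medians were -0.22 and -1.05, beside -0.92 and -0.96 over all genes. *Bak1*, a pore-forming relative of *Bax*, rose by 2.18 ± 0.38 in WT and 2.40 ± 0.38 in KO cells, and *Bid*, which activates both, by 2.10 ± 0.40 and 2.86 ± 0.38. Survival genes went both ways. *Mcl1* (-2.23 ± 0.30 and -2.45 ± 0.30) and *Bcl2* (-2.02 ± 0.33 and -2.45 ± 0.33) fell in both genotypes. *Bcl2l1* rose by 1.13 ± 0.35 in WT and 1.24 ± 0.34 in KO cells, both called, though the KO libraries overlapped. *Bcl2l2* was called in neither genotype (-0.05 ± 0.24 and 0.33 ± 0.24). Among genes that promote apoptosis, *Bcl2l11*, which encodes BIM, fell in both genotypes (-2.22 ± 0.33 in WT and -1.91 ± 0.32 in KO), as did *Pmaip1*, which encodes NOXA (-1.61 ± 0.42 and -2.13 ± 0.44).

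Of 9 paralogs of the 10 genes, 1 rose and 3 fell in WT cells and 1 rose and 4 fell in KO cells, beside the same shares of all genes (9.35% and 10.7% higher, 17% and 19% lower). *Ccng2*, the paralog of *Ccng1*, moved against it, by -2.25 ± 0.34 in WT and -1.997 ± 0.34 in KO cells. *Btg1*, the paralog of *Btg2*, fell with it, by -2.37 ± 0.31 and -1.89 ± 0.30, from 1142 ± 268 to 221 ± 12.4 CPM in WT and from 1061 ± 176 to 285 ± 71.3 CPM in KO cells. *Gadd45b* fell like *Gadd45a*, by -1.25 ± 0.29 and -2.48 ± 0.31.

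As a description of patterns over the 12 libraries, which are dominated by the difference between fresh and cultured cells and share depth and sex with it, Pearson's r of log2 CPM was computed against 12862 genes with an average log2 CPM over 1. The genes most like *Trp53* were *Fbxo6* and *D3Ertd751e* (r = 0.83 each) and *Fam210b* (0.82). For *Trp63* they were *Gstm4* (0.90), *Mia2* (0.87) and *Amn1* (0.86). For *Mdm2* they were *Rexo2* (0.97), *Nkapd1* and *Cct4* (0.94 each).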

How the data were processed

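Total RNA from sorted cells was made into libraries with the NEBNext Ultra kit. According to the labels and the study's methods, the authors trimmed reads with Trim Galore 0.6.0, mapped them to GRCm38.p6/mm10 with STAR 2.7.2a, assigned them to GENCODE genes with Rsubread, and tested them with DESeq2 1.34.0. Strand and multimapping settings are not given in the sources used here. The authors deposited whole-number counts per gene for 12 libraries, and FPKM as 1 value per group, whose scaling is not named. No column of another series was present (0 left out).

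From the deposited counts, genes were filtered with filterByExpr and scaled by TMM in edgeR 4.0.16 (R 4.3.3), with a prior count of 2 for log2 CPM. One quasi-likelihood fit of all 12 libraries with 4 group means gave all comparisons, and SE is the log2 fold change divided by the square root of F. The scripts were tested on simulated data. Replicate pairs of every group differed by more than sampling noise, so that none was counted as a duplicate. The 10 genes, the lists and the tests were chosen with earlier results of these data known. Named genes are the 10, *Cxcr4*, and up to 3 highest and 3 lowest called genes per list and comparison. The 3 genes most similar to each of *Trp53*, *Trp63* and *Mdm2* were also named. *Cdkn1a*, *Trp73*, *Bcl2l1* and *Bcl2l2* were added after their values were seen. Coordinates are from GENCODE M21 on GRCm38 and promoters from RefSeq. The alternatives were other scalings, filters and fits, DESeq2 1.42.0, a replicate block, each library left out, and, added after seeing the data, a term for the depth of fresh libraries.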

Additional observations from a re-analysis of the deposited data

Results flagged for a closer look

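*Trp63* drew attention because its change with overnight culture took opposite directions in the genotypes, lower in both cultured WT libraries than in all fresh WT libraries and higher in both cultured KO libraries than in all fresh KO libraries. The difference between the changes was 2.59 on the log2 scale (SE 0.76), and edgeR's quasi-likelihood test of it did not pass over all genes (adjusted p = 0.443, between 0.169 and 0.451 over the alternatives and between 0.300 and 1.00 without 1 library). It rests on 15 counts in the 2 cultured WT libraries together. Of all genes tested, 38.4% were lower with culture in WT without overlap of the libraries, and 18.3% were higher in KO without overlap. The share of genes with both patterns at once was not computed, and these separate shares do not give it. Among the 20 fresh groups of 4 libraries tested for a single distant library, 10 genes in 2 genotypes, none passed Dixon's limit, and chance alone would pass about 1 in 20.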

How the results depend on the processing

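The 10 genes and the counts of called genes were recomputed under 11 alternatives for KO against WT in fresh cells, 10 in cultured cells and with culture, and 8 between the states, where fits of the compared groups alone give no value. The depth term was run for fresh cells alone, and genes of the other lists were not recomputed. Without a filter on low counts, 48 genes were called between KO and WT in fresh cells, 294 in cultured cells and 168 in the test between the states, and with DESeq2 on all 12 libraries 140 were called in cultured cells and 48 in the test between the states; under both, 1 of the 10 genes (*Trp63*) was called in cultured cells. Other counts in cultured cells were 8 with DESeq2's size factors, 2 with a mean count of at least 10, 20 with a robust fit, 3 with edgeR and 29 with DESeq2 on the compared groups, and in the test between the states 8 with a robust fit. Same-numbered libraries of WT and KO were not consistently alike (correlation -0.27 to 0.59 in fresh and -0.07 in cultured cells). Fresh libraries of the same number had similar depth, and the labels do not say whether the numbers mark pairs. With the numbers as a block, 23 genes were called in cultured cells and 6 in the test between the states. *Gadd45a* in KO cells then came under the 2-fold limit (-0.96), and no other call among the 10 changed. *Bbc3* in WT cells, near 0 in the report, changed sign to 0.00498 with DESeq2's size factors, 0.0402 with a mean count of at least 10, 0.25 with the block and 0.0265 with edgeR on the compared groups, and the *Btg2* difference between the states to 0.0401 with the block. Why these values moved was not tested.

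Leaving out each library in turn, where a cultured group left with 1 library is assumed to vary like the others, gave 3 to 7 called genes in fresh cells, 0 (without the first cultured WT library) to 195 (without the second) in cultured cells, 0 to 82 in the test between the states, 4455 to 7033 with culture in WT and 4956 to 7783 in KO. Signs changed, for values that were not called, in fresh cells for *Trp63* (-0.14 to 0.46), *Mdm4* (-0.17 to 0.0192), *Bax* (-0.21 to 0.33), *Gadd45a* (-0.0912 to 0.16) and *Sesn1* (-0.25 to 0.0634). In cultured cells they changed for *Mdm2* (-0.22 to 0.39), *Bax* (-0.13 to 0.34), *Bbc3* (-0.46 to 2.01), *Gadd45a* (-0.0690 to 0.61) and *Btg2* (-0.77 to 0.72). Between the states they changed for *Mdm2* (-0.41 to 0.20), *Bax* (-0.25 to 0.37), *Gadd45a* (-0.11 to 0.56) and *Btg2* (-0.63 to 0.86), and with culture in WT for *Trp53* (-0.28 to 0.12) and *Bbc3* (-1.27 to 0.63).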
